A study of Homo sapiens with 11 samples.

Results

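Inhibin, activin and TGF-β signalling was followed through 10 genes: the ligand subunits INHA, INHBA and INHBB, the activin-binding protein FST, the ligands TGFB1 and TGFB2, the receptor TGFBR2, and the intracellular SMAD3, SMAD6 and SMAD7. The genes were chosen by name, and all 10 were among the 60676 Ensembl genes of the count table. RNA was sequenced from RWPE1 cells, an immortalized and non-tumorigenic line of prostate epithelial cells. All cultures grew in keratinocyte serum-free medium with bovine pituitary extract and epidermal growth factor. There were 3 libraries from normoxia (0 h), and 3, 3 and 2 libraries after 6, 12 and 24 h at 1% oxygen. By the sample labels the hypoxic medium also held 10 mM HEPES buffer, so oxygen and buffer cannot be told apart in any comparison with 0 h. No normoxic library is labelled for 6, 12 or 24 h, so length of hypoxia and time in culture cannot be told apart either. A further 24 h library was not analysed here.

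Inhibins and activins are secreted dimers of the TGF-β family. A pair of beta subunits, from INHBA or INHBB, makes an activin, and the alpha subunit INHA joined to a beta subunit makes an inhibin, which opposes activin. Activins and TGF-βs bind type II and then type I receptor kinases, which phosphorylate SMAD2 and SMAD3 so that they enter the nucleus with SMAD4 and act on target genes. SMAD6 and SMAD7 block the receptors and are themselves induced by the pathway, and in epithelial cells TGF-β is known for halting division and for driving a mesenchymal shift. The question is which of these genes changed in mRNA level in hypoxia, and when.

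Each library held 27496009 to 49488345 counted reads. TMM factors, which rescale library size, ran from 1.32 in a normoxic library to 0.539 in 24 h replicate 2, and levels below are counts per 1000000 (CPM) on that scale. The 24 h libraries lay 139.9 apart in Euclidean distance over log2 CPM of the tested genes, against 40.3 to 87.1 within the other time points, so 24 h levels of the 10 genes are given per library. Of the prostate luminal markers, KLK3 was at 0 in every library. Basal markers (KRT5, KRT14, KRT15, TP63, ITGA6) summed to 7918 to 10858 CPM in normoxia and 11413 to 20953 in hypoxia, against at most 0.506 for leukocyte and 0.470 for endothelial markers. Fibroblast markers, nearly all COL1A1, summed to 47.1 to 60.6 CPM in normoxia and 28.0 to 30.5 at 24 h, and luminal markers to 228 to 258 and 1066 to 1797. Single markers did not move as 1 group. At 6, 12 and 24 h the basal KRT14 rose by 1.21, 1.39 and 2.14 on the log2 scale. TP63 was lower at -1.72, -0.95 and -1.50 and KRT15 at -1.73, -1.27 and -1.07. Of the 2 epithelial markers, CDH1 was lower at 24 h (-1.06) and EPCAM was higher at each time, at 0.66, 0.66 and 0.89. The part of these shifts in the results below was not tested. In bulk RNA fewer cells with a transcript and less of it per cell cannot be told apart. No source says whether the replicates were separate cultures, so p-values measure the spread between these libraries of 1 line.

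One fit by edgeR's quasi-likelihood method took all 11 libraries, and here a called gene has an adjusted p under 0.05 (Benjamini-Hochberg, 19981 genes tested). INHBB had too few counts for the filter, which left 9 genes tested. INHA had 10 or more counts in 3 normoxic and 0 hypoxic libraries and so passed through the group where it was high. It is among the genes counted as lower at each time below. Against 0 h, 4 genes were higher and 2 lower at 6 h, 5 higher and 1 lower at 12 h (3 called without normoxic replicate 2 or 3 or 12 h replicate 2 or 3), and 2 higher and 3 lower at 24 h. Over all tested genes 25.1% were higher and 27.7% lower at 6 h, 24.2% and 27.1% at 12 h, and 29.9% and 31.3% at 24 h. The median log2 fold change was 0.62, 0.46 and 0.022 over the 9 genes, beside -0.0021, -0.033 and -0.065 over all tested genes. INHA was lower and TGFB1 and TGFB2 were higher at all 3 times, whereas TGFBR2 and SMAD3 were higher at 6 and 12 h and had lost that rise by 24 h.

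**Figure D1:**
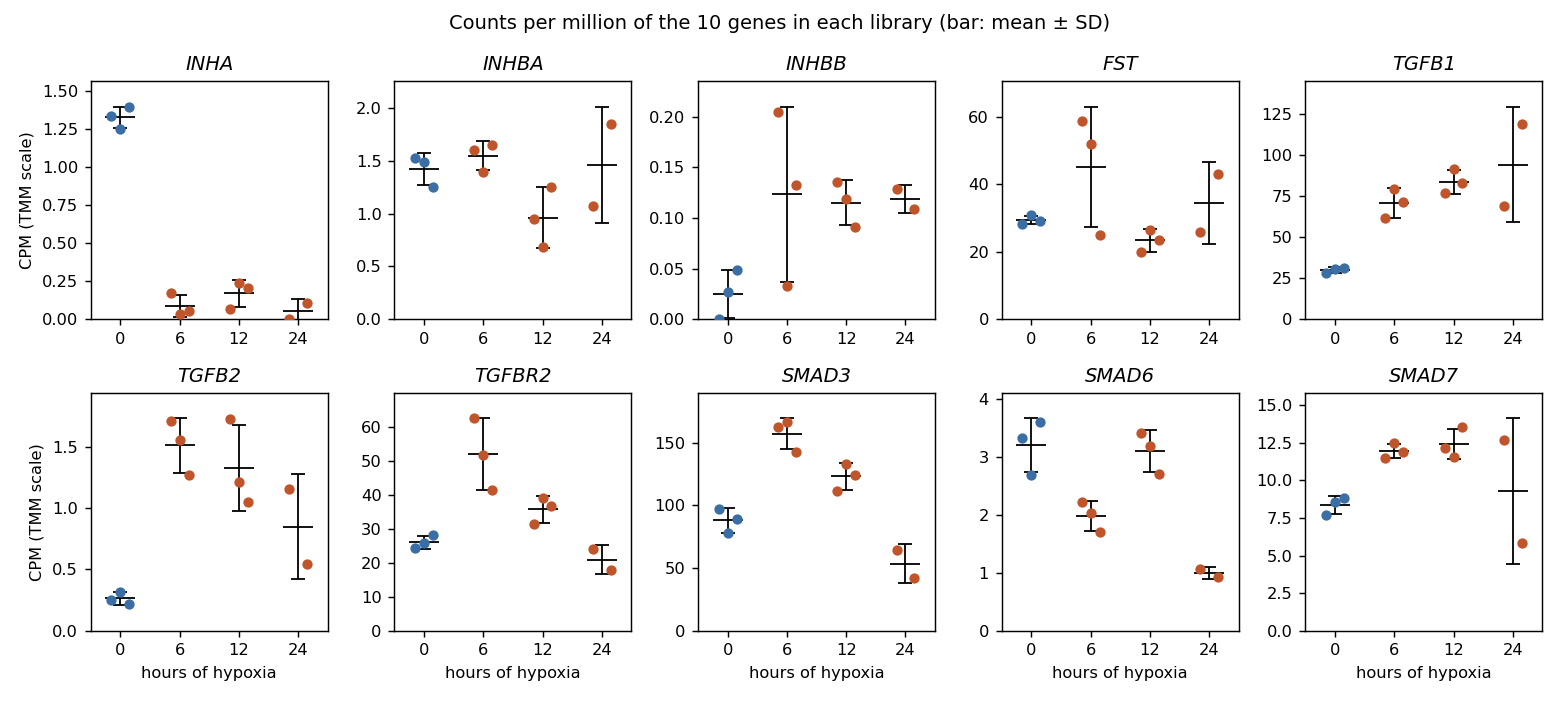
CPM on the TMM scale (linear vertical axes from 0) against hours of hypoxia for the 10 genes, with 1 point per library, a horizontal bar at the group mean and whiskers of 1 SD (blue normoxia, orange hypoxia). INHA falls from at least 1.25 CPM to at most 0.237, TGFB1 and TGFB2 lie above normoxia in each hypoxic library, and TGFBR2 and SMAD3 rise to 6 h and lie below normoxia at 24 h.

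INHA encodes the alpha subunit that turns an activin beta chain into an inhibin. Its RNA fell in hypoxia more than that of the other genes tested here. The normoxic libraries held 58, 47 and 58 counts, or 1.34, 1.25 and 1.39 CPM. At 6 h the counts were 5, 1 and 3, at 12 h 2, 8 and 9, and at 24 h 0 and 2. Each hypoxic library was below each normoxic library. Summed counts were 16.7-fold lower at 6 h (95% exact interval 8.58 to 37.2), 7.50-fold lower at 12 h (4.65 to 12.8) and 27.8-fold lower at 24 h (7.57 to 231), where the intervals cover counting error only. edgeR's quasi-likelihood test called INHA lower at each time, but INHA entered that test only through its normoxic counts. Its p-values are therefore not used as support. Without 24 h replicate 2 the 24 h count is 0, and the lower end of the 95% exact interval is 8.34-fold lower. Without 6 h replicate 1 the 6 h ratio was 27.8 (10.7 to 103), and without 24 h replicate 1 the 24 h ratio was 12.2 (3.33 to 102). The hypoxic times rest on at most 9 counts in a library, and the 3 contrasts between them were not called.

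INHA (ENSG00000123999) lies on the plus strand of chr2:219569162-219575711 in GRCh38. The RefSeq start site of its promoter table entry lies 3148 bases inside the GENCODE gene. The promoter window, from 250 bases before to 50 after that site at chr2:219572060-219572359, is shown because the gene fell at every time. Promoters were searched on both strands for ACGTG, the core recognised by hypoxia-inducible factors, which 21.4% of 35116 RefSeq promoters of the same length hold. They were also searched for CAGAC, a short site of Smad proteins present in 45.3%, and for the Smad palindrome GTCTAGAC present in 0.202%. Neither ACGTG nor GTCTAGAC contains CAGAC, but matches can share bases. Capitals mark any match, and in INHA there were 2, both of CAGAC.
INHA: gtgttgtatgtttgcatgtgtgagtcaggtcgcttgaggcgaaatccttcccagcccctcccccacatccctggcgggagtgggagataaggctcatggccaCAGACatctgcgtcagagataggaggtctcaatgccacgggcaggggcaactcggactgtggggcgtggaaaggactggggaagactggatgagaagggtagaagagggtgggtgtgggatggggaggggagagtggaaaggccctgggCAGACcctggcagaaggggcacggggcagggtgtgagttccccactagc

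INHBA encodes the beta A chain of activin A. It was called at no time with TMM scaling. Its normoxic levels were 1.52, 1.49 and 1.25 CPM, and those at 6 h were 1.60, 1.39 and 1.65 CPM. At 12 h they were 0.947, 0.681 and 1.26 CPM, and at 24 h 1.07 and 1.85 CPM. Hypoxic and normoxic libraries overlapped at each time. The log2 fold changes were 0.13 (SE 0.27), -0.55 (SE 0.28) and 0.02 (SE 0.32), with edgeR quasi-likelihood Benjamini-Hochberg adjusted p of 0.711, 0.117 and 0.958. With library size alone INHBA was called lower at 12 h (-1.03, edgeR adjusted p = 0.00535) and 24 h (-0.96, 0.0121). The sign at 24 h also turned with the library kept, as it was -0.43 without replicate 2. Its antisense gene INHBA-AS1 overlaps 2.99% of its exonic bases.

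The ratio of the subunit mRNAs was lower in hypoxia, a difference that was not tested. Per exonic kilobase (RPKM), INHA was 4.73 times INHBA in normoxia, with a range of 4.25 to 5.65 over libraries. Their mean CPM in normoxia was 1.33 and 1.42, so this excess rests on the annotated exonic lengths of 1636 and 8284 bases. The ratio of means was 0.283 at 6 h, 0.896 at 12 h and 0.189 at 24 h, and the highest hypoxic library, at 1.76, lay below the lowest normoxic one.

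INHBB, the beta B chain, was at the edge of detection. Counts were 0, 1 and 2 in normoxia, 6, 1 and 7 at 6 h, 4, 4 and 4 at 12 h, and 3 and 2 at 24 h. The 12 and 24 h libraries lay above the normoxic ones in CPM, while those at 6 h overlapped them. Summed counts were 5.06-fold higher at 6 h (95% exact interval 1.41 to 27.5), 4.57-fold at 12 h (1.23 to 25.3) and 4.89-fold at 24 h (0.951 to 31.5). Leaving out a normoxic library moved these ratios to between 3.27 and 10.0 at 6 h, 2.96 and 9.06 at 12 h and 3.16 and 9.69 at 24 h. Without normoxic replicate 1 the intervals at 6 and 12 h reached down to 0.913 and 0.798. Without a low-count filter edgeR's quasi-likelihood Benjamini-Hochberg adjusted p was 0.0660, 0.101 and 0.185, so INHBB was called at no time.

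FST encodes follistatin, a secreted protein that binds activins and keeps them from their receptors. In normoxia it had the highest level per length of the 10 genes, at 10.7 RPKM, and its libraries read 28.3, 30.8 and 29.1 CPM. At 6 h the libraries split into 58.8, 51.8 and 25.1 CPM. At 12 h they read 20.0, 26.6 and 23.5 CPM, all below normoxia, and at 24 h 25.7 and 42.9 CPM, on either side of it. No contrast was called, with log2 fold changes of 0.62 (SE 0.27), -0.33 (SE 0.27) and 0.22 (SE 0.30) and edgeR quasi-likelihood Benjamini-Hochberg adjusted p of 0.0709, 0.324 and 0.541. The 6 h value turned on replicate 3, without which it was 0.92 (edgeR adjusted p = 0.00339), and it was also called without 24 h replicate 1 (0.0402) or 2 (0.0384), at 0.59. At 24 h it was 0.49 without replicate 1 and -0.21 without replicate 2. FST exceeded INHBA 62.2-fold per length in normoxia, and 87.9-, 73.1- and 70.8-fold at 6, 12 and 24 h, with overlapping ranges of libraries.

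TGFB1 and TGFB2 encode the ligands TGF-β1 and TGF-β2, which are secreted in latent complexes. Both rose at each time, from very different starting levels. TGFB1 read 28.0, 30.9 and 31.3 CPM in normoxia and 61.8, 79.6 and 71.4 CPM at 6 h. It read 76.9, 91.7 and 83.1 CPM at 12 h and 69.4 and 119 CPM at 24 h. No hypoxic library came down to the normoxic range. The log2 fold changes were 1.24 (SE 0.19), 1.48 (SE 0.19) and 1.65 (SE 0.20), with edgeR quasi-likelihood Benjamini-Hochberg adjusted p of 0.000150, 5.81e-05 and 2.49e-05. At 24 h the value was 1.19 without replicate 2 and 1.93 without replicate 1, and it was called in both fits. TGFB1 stood second in RPKM in normoxia, at 9.21 and overlapping SMAD3, and first at each hypoxic time, where it reached 28.9 at 24 h. HNRNPUL1, on the opposite strand, overlaps 6.59% of its exonic bases, and the strand setting of the counting is not given in the sources used here.

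TGFB2 was near the limit of detection in normoxia, with 11, 12 and 9 counts or 0.254, 0.320 and 0.216 CPM. The 6 h libraries held 50, 48 and 67 counts (1.71, 1.56 and 1.27 CPM) and the 12 h libraries 51, 41 and 46 (1.72, 1.21 and 1.05 CPM). The 24 h libraries held 27 and 10 counts, or 1.15 and 0.545 CPM. Each hypoxic library was above the normoxic ones, and the lower 24 h library was nearest to them. Log2 fold changes of TGFB2 were 2.50 (SE 0.34), 2.32 (SE 0.34) and 1.71 (SE 0.41), with edgeR quasi-likelihood Benjamini-Hochberg adjusted p of 7.50e-05, 0.000179 and 0.00307. The 24 h call was lost without replicate 1, where the value was 0.99 (edgeR adjusted p = 0.118), and it was 2.11 without replicate 2. With library size alone in place of TMM it was 0.85 (edgeR adjusted p = 0.133). Nor was it called by limma-voom with sample quality weights (adjusted p = 0.0900). TGFB1 still exceeded TGFB2 per length, 212-fold in normoxia and 87.0-, 117- and 206-fold at 6, 12 and 24 h, where the 24 h libraries gave 111 and 406. Same-strand TGFB2-OT1 shares 22.7% and opposite-strand TGFB2-AS1 11.6% of the exonic bases, and both were at 0 counts in every library. The handling of reads that match several genes is not given. The counts of 0 therefore do not show whether the overlap affected the level of TGFB2.

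**Figure D2:**
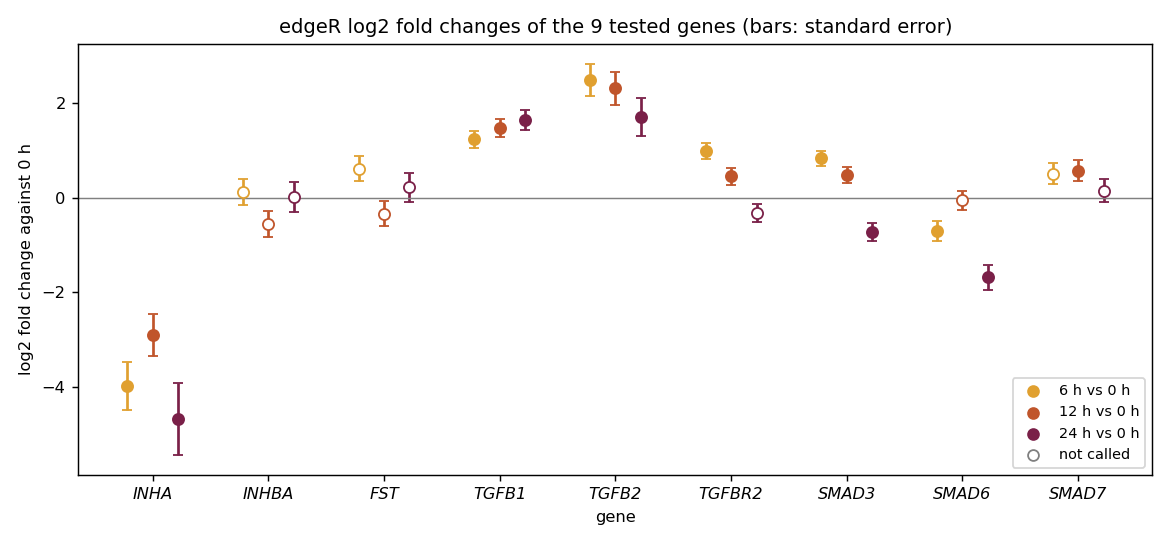
edgeR log2 fold change against 0 h (vertical axis, bars of 1 standard error) at 6, 12 and 24 h for the 9 tested genes, with open circles where the gene was not called. INHA lies at -2.90 or lower throughout, TGFB1 and TGFB2 at 1.24 or higher throughout, and TGFBR2 and SMAD3 lie above 0 at 6 h and below it at 24 h.

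TGFB2 (ENSG00000092969) lies on the plus strand of chr1:218345336-218444619, and the RefSeq and GENCODE start sites are the same base. Its promoter window, chr1:218345086-218345385, is shown because TGFB2 had the largest rise of the 10 genes at 6 h and because it holds both motifs. ACGTG occurs 3 times on the 2 strands, and 2 of these overlap in a palindrome, where they start 49 and 48 bases before the start site. CAGAC occurs 2 times, and 1 of these, 53 bases before the start site, runs directly into that palindrome and shares a base with it. The promoter window of TGFB1, by contrast, holds 0 matches of any of the 3 motifs.
TGFB2: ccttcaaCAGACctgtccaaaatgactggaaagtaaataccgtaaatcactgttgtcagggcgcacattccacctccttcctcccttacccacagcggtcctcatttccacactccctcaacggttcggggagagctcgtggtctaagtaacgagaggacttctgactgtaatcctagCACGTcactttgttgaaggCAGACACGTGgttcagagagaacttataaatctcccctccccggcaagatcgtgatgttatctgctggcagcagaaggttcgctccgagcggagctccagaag

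TGFBR2 encodes the type II receptor that binds TGF-β and starts the signal. It rose early and the rise was gone at 24 h. Normoxic libraries read 24.3, 25.7 and 28.0 CPM, and 6 h libraries 62.5, 51.6 and 41.3 CPM. The 12 h libraries read 31.4, 39.0 and 36.6 CPM and the 24 h libraries 23.9 and 17.9 CPM. All 6 h and 12 h libraries lay above normoxia, and both 24 h libraries lay below it. The log2 fold changes were 0.99 (SE 0.17), 0.46 (SE 0.17) and -0.31 (SE 0.20), with edgeR quasi-likelihood Benjamini-Hochberg adjusted p of 0.000447, 0.0416 and 0.181. The 12 h call was lost without normoxic replicate 1, 2 or 3, 6 h replicate 2 or 12 h replicate 2 or 3 (edgeR adjusted p from 0.0546 to 0.166), and with library size alone the value was -0.01. At 24 h the value was -0.60 without replicate 1 (edgeR adjusted p = 0.0266) and -0.14 without replicate 2, and with library size alone it was -1.18 (0.00324).

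SMAD3 is the receptor-activated Smad that carries the TGF-β and activin signal. It was higher at 6 and 12 h and lower at 24 h. Normoxic libraries read 96.9, 77.8 and 89.4 CPM, and 6 h libraries 162, 166 and 143 CPM. The 12 h libraries read 112, 133 and 124 CPM and the 24 h libraries 64.3 and 42.4 CPM. The 6 h and 12 h libraries were all above normoxia and the 24 h libraries both below. Log2 fold changes of SMAD3 were 0.84 (SE 0.16), 0.48 (SE 0.16) and -0.72 (SE 0.19), with edgeR quasi-likelihood Benjamini-Hochberg adjusted p of 0.00105, 0.0258 and 0.00513. The fall at 24 h was called with either library left out (-1.11 without replicate 1, -0.47 without replicate 2). The 12 h call was lost without normoxic replicate 2 or 3 or 12 h replicate 2 or 3 (edgeR adjusted p from 0.0673 to 0.115). With library size alone the 6 h value was 0.52 (edgeR adjusted p = 0.112) and the 12 h value 0.02.

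SMAD3 (ENSG00000166949) lies on the plus strand of chr15:67063763-67195173 and has 5 RefSeq promoter windows. The most upstream window, chr15:67065352-67065651, is shown because SMAD3 was called in both directions. ACGTG occurs on both strands as 1 palindrome that starts 173 bases before the start site, and CAGAC occurs 1 time just past it. The counts are per gene, so they do not tell which window was used.
SMAD3: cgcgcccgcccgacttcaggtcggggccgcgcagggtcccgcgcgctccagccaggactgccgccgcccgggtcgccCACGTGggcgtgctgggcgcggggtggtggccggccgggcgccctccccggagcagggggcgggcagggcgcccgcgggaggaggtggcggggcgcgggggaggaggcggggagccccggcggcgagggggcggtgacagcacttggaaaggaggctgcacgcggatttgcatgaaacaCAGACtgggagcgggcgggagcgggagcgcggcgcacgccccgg

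SMAD6 and SMAD7 are the inhibitory Smads. SMAD6 is best known for restraining BMP signals and SMAD7 for restraining TGF-β and activin receptors. The SMAD6 libraries read 3.32, 2.69 and 3.60 CPM in normoxia and 2.22, 2.04 and 1.70 CPM at 6 h. They read 3.41, 3.20 and 2.72 CPM at 12 h and 1.07 and 0.926 CPM at 24 h. SMAD6 was thus below normoxia at 6 h, level with it at 12 h and below all other libraries at 24 h. The log2 fold changes were -0.70 (SE 0.21), -0.05 (SE 0.20) and -1.68 (SE 0.27), with edgeR quasi-likelihood Benjamini-Hochberg adjusted p of 0.0132, 0.859 and 0.000176. The 6 h call was lost without normoxic replicate 3 (edgeR adjusted p = 0.0611) or 6 h replicate 3 (0.0502), and the 24 h value was -1.85 and -1.60 without replicate 1 and replicate 2. Limma-voom with sample quality weights did not call it at 24 h (adjusted p = 0.0793).

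SMAD6 (ENSG00000137834) lies on the plus strand of chr15:66702236-66782849, on the same chromosome as SMAD3. Its promoter window, chr15:66701986-66702285, is shown because it was the 1 window among the 17 of these genes with the Smad palindrome, which starts 12 bases before the start site. ACGTG occurs 1 time, 87 bases before the start site.
SMAD6: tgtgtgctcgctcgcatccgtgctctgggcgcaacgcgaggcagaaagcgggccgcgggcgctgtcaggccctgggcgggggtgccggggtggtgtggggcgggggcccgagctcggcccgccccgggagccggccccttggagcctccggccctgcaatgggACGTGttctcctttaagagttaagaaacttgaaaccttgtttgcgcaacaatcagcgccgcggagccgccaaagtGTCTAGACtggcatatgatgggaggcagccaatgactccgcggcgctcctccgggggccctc

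SMAD7 changed less. Its libraries read 7.69, 8.58 and 8.79 CPM in normoxia, and 11.5, 12.4 and 11.9 CPM at 6 h. They read 12.1, 11.6 and 13.5 CPM at 12 h and 12.7 and 5.83 CPM at 24 h. All 6 h and 12 h libraries were above normoxia, and the 24 h libraries lay on opposite sides of it. Log2 fold changes of SMAD7 were 0.51 (SE 0.22), 0.57 (SE 0.22) and 0.16 (SE 0.25), with edgeR quasi-likelihood Benjamini-Hochberg adjusted p of 0.0673, 0.0465 and 0.604. At 24 h it was called in opposite directions according to the library kept, lower at -0.57 without replicate 1 (edgeR adjusted p = 0.0168) and higher at 0.58 without replicate 2 (0.00877). The 12 h call was lost without any 1 library of 0, 6 or 12 h (edgeR adjusted p from 0.0556 to 0.142), and SMAD7 was called at 6 h without 24 h replicate 1 (0.00289) or 2 (0.00249). With library size alone its 12 h value was 0.10. SMAD7 exceeded SMAD6 5.65-fold per length in normoxia (5.01 to 6.91 over libraries), and 13.0-, 8.65- and 20.1-fold at 6, 12 and 24 h, where no library came below 7.71.

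**Figure D3:**
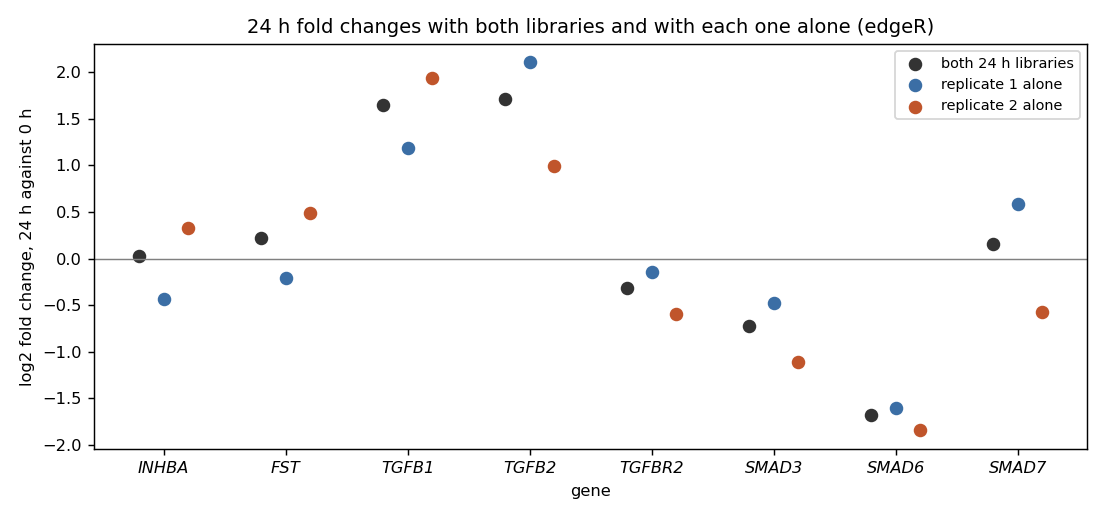
edgeR log2 fold change at 24 h against 0 h (vertical axis) for 8 genes, with both 24 h libraries (black), replicate 1 alone (blue) and replicate 2 alone (orange). TGFB1, TGFB2, TGFBR2, SMAD3 and SMAD6 keep their sign with either library, while INHBA, FST and SMAD7 change it.

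The change over time was tested directly between hypoxic groups. Between 6 and 12 h 0 of the 9 genes were called by edgeR or limma-voom, with 4 at an unadjusted p under 0.05, 3 called by DESeq2, which called 1919 of all 19981 genes, and 3 by limma-voom with sample quality weights, which called 4489. Over all tested genes 1.88% were higher and 3.07% lower at 12 h. The nearest to a call were FST with -0.95 (edgeR quasi-likelihood Benjamini-Hochberg adjusted p = 0.0656), TGFBR2 with -0.54 (0.0952) and SMAD6 with 0.65 (0.0976). From 12 to 24 h 3 genes were lower and 0 higher, where 13.3% of all tested genes were lower and 15.1% higher. From 6 to 24 h the same 3 genes were lower and 0 higher, where 20.3% were lower and 22.1% higher. They were TGFBR2, SMAD3 and SMAD6, and in each the 24 h libraries lay below all 6 h and 12 h libraries.

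The log2 fold change of SMAD3 at 24 h was -1.56 against 6 h (SE 0.19, edgeR quasi-likelihood Benjamini-Hochberg adjusted p = 0.000133) and -1.21 against 12 h (SE 0.19, 0.00192). That of TGFBR2 was -1.31 (SE 0.20, edgeR adjusted p = 0.000420) and -0.77 (SE 0.20, 0.0139). That of SMAD6 was -0.98 (SE 0.27, edgeR adjusted p = 0.0117) and -1.63 (SE 0.27, 0.00224). The drop of TGFBR2 from 12 to 24 h was not called without 24 h replicate 2 (edgeR adjusted p = 0.0671). In edgeR fits of only the 2 groups compared, 24 h against 12 h lost the calls of TGFBR2 (0.0767), SMAD3 (0.0658) and SMAD6 (0.0658), and 24 h against 6 h that of SMAD6 (0.0883). With sample quality weights in limma-voom, SMAD6 was called in neither (adjusted p = 0.252 and 0.446) and TGFBR2 not against 12 h (0.186). In the edgeR fit of all libraries with TMM scaling, TGFB1, TGFB2 and INHA were called in no contrast between hypoxic times. Under some alternatives TGFB1 and TGFB2 were called from 12 to 24 h and from 6 to 24 h. Without 24 h replicate 1 the log2 fold changes from 12 to 24 h and from 6 to 24 h were 0.48 and 0.72 for TGFB1. For TGFB2 they were -1.29 and -1.48. From 6 to 12 h 2 genes were called with 6 h replicate 3 left out, where 1003 of 19861 tested genes were called.

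The other genes of the pathway were described through a list of 59, of which 47 were tested. At 6 h 21 were higher and 7 lower, at 12 h 14 and 8, and at 24 h 12 and 14, where the shares of all tested genes were 25.1% and 27.7%, 24.2% and 27.1%, and 29.9% and 31.3%. The median log2 fold change was 0.31, 0.14 and -0.11. The same shares of all tested genes are the background for the counts of each subgroup below. The genes named from it were called in 1 direction at all 3 times, with an edgeR quasi-likelihood Benjamini-Hochberg adjusted p of 0.0258 or less. BMP6 and GREM1 entered that test only through hypoxic libraries, so their p-values are not used as support. With library size alone, the 24 h values of BMP6 (0.68), BMP2 (0.29), THBS1 (0.30), ITGB8 (0.14), FSTL1 (0.25) and TGFBR3 (0.74) were not called (edgeR adjusted p from 0.113 to 0.728), nor were BAMBI at 6 h (0.65) and FSTL1 at 12 h (0.70). Limma-voom with sample quality weights did not call BMP6, ITGB8, FSTL1, TGFBR3 and TGIF2 at 24 h (adjusted p from 0.0506 to 0.179). Of the 47, 21.3% were higher and 10.6% lower at all 3 times, where over all tested genes these shares were 14.8% and 17.9%.

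Among 8 tested ligands, 4 were higher and 1 lower at 6 h, 4 and 2 at 12 h, and 3 and 1 at 24 h. BMP6 rose from 0.154 ± 0.0186 CPM in normoxia to 1.88 ± 0.571 at 6 h (SD, n = 3 each), with log2 fold changes of 3.56 (SE 0.33), 3.01 and 1.61 at 6, 12 and 24 h. The normoxic libraries held 5 to 7 counts of BMP6, so it passed the filter through the groups where it was high. BMP2, a bone morphogenetic protein like BMP6, rose by 0.95, 1.10 and 1.32. GDF15, a stress-responsive member of the family, was the 1 ligand lower at all times, from 86.6 ± 8.63 CPM to 10.1 ± 7.80 at 6 h, with log2 fold changes of -3.08 (SE 0.40), -2.38 and -1.78. Without 6 h replicate 3 its 6 h value was -3.93, and without 24 h replicate 2 the 24 h value of BMP2 was 0.72.

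Of 9 tested genes for the latency and activation of TGF-β, 6 were higher and 1 lower at 6 h, 3 and 1 at 12 h, and 3 and 3 at 24 h, with medians of 0.63, 0.31 and -0.12. THBS1, thrombospondin 1, which can release TGF-β from its latent complex, rose from 27.6 ± 4.78 to 156 ± 30.9 CPM at 6 h, with log2 fold changes of 2.50 (SE 0.20), 2.02 and 1.19. ITGB8, an integrin chain that activates latent TGF-β, rose by 1.48, 1.37 and 0.98, of which the last was 0.55 (edgeR adjusted p = 0.0703) without 24 h replicate 1. LTBP4, which binds latent TGF-β in the matrix, was lower at all times, at -0.75, -0.95 and -1.04.

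Of 5 tested antagonists, 3 were higher and 0 lower at 6 h, 4 and 0 at 12 h, and 3 and 0 at 24 h. GREM1, which binds BMPs, had 0 or 1 count in each normoxic library and so passed the filter through the groups where it was high. Its summed counts were 30.9-fold higher at 6 h (95% exact interval 8.17 to 261), 13.1-fold at 12 h (3.25 to 115) and 38.1-fold at 24 h (9.55 to 332). Without 12 h replicate 1 the 12 h ratio was 5.53 (1.05 to 54.5) and the call was lost (edgeR adjusted p = 0.0813), and without 24 h replicate 1 the 24 h ratio was 16.7 (2.73 to 175). BAMBI, a receptor-like protein without a kinase, rose by 0.97, 1.60 and 2.33, its 6 h call was lost without normoxic replicate 1, 2 or 3 or 6 h replicate 1 (edgeR adjusted p from 0.0603 to 0.0856), and its 24 h value was 1.44 without 24 h replicate 1. FSTL1 rose by 1.42, 1.16 and 1.16.

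Of 11 tested receptors, 3 were higher and 2 lower at 6 h, 2 and 3 at 12 h, and 1 and 6 at 24 h. Of all tested genes 29.9% were higher and 31.3% lower at 24 h. TGFBR3, betaglycan, which presents TGF-β2 to TGFBR2 and also binds inhibin, rose by 2.01 (SE 0.31), 2.62 and 1.63, from 1.83 ± 0.230 CPM to 7.43 ± 3.06 at 6 h. BMPR1B, a type I BMP receptor, was lower at all times, at -1.30, -0.67 and -1.05. Of 14 Smads and Smad regulators, 5 were higher and 3 lower at 6 h, 1 and 2 at 12 h, and 2 and 4 at 24 h. TGIF2, a repressor that binds Smads, rose by 2.17, 1.42 and 0.78, the last being -0.16 with library size alone. SMAD1, a BMP-activated Smad, was lower at -0.57, -0.81 and -1.80, and SKIL, a Smad corepressor induced by TGF-β, at -0.80, -1.06 and -0.81. SMAD2 and SMAD4, the partners of SMAD3, were called at no time.

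**Figure D4:**
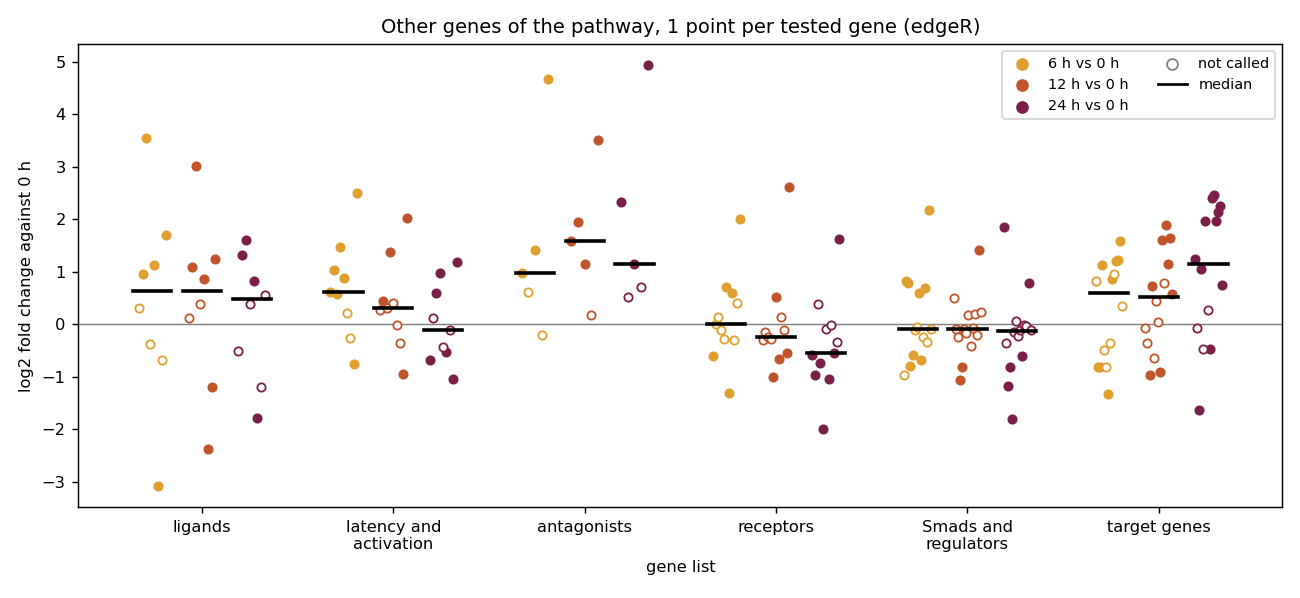
edgeR log2 fold change against 0 h (vertical axis) of each tested gene of the 5 pathway subgroups and the target list at 6, 12 and 24 h, with open circles for genes not called and black bars at the medians. At 24 h 6 of 11 tested receptors are lower and 1 higher, and 9 of 14 target genes are higher and 2 lower. Of all tested genes 31.3% are lower and 29.9% higher at 24 h.

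A list of 14 known target genes of TGF-β or BMP Smads was tested in full. At 6 h 5 were higher and 3 lower, at 12 h 6 and 2, and at 24 h 9 and 2, with medians of 0.59, 0.52 and 1.14. The shares of all tested genes were 25.1% higher and 27.7% lower at 6 h, 24.2% and 27.1% at 12 h, and 29.9% and 31.3% at 24 h. The target counts at 6 h and 24 h moved when 24 h replicate 1 was left out. At 6 h the number of targets called rose, as did the number called over all tested genes. At 24 h the number of targets called fell, while the number called over all tested genes rose. In the fit of all libraries 35.7% of the targets were higher and 7.14% lower at all 3 times, against 14.8% and 17.9% of all tested genes. SNAI2, a repressor of epithelial genes, rose by 1.21 (SE 0.18), 1.90 and 1.98, and TAGLN, an actin-binding protein of contractile cells, by 1.59 (SE 0.29), 1.65 and 2.26. FN1 and SPHK1 were also higher at each time. CDKN2B, a cell cycle inhibitor induced by TGF-β, was lower at all 3 times, and ID1 was called at none. The part of Smads in these values was not tested.

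The genes most like TGFB2 and INHA over the 11 libraries were found by Pearson correlation among 13939 genes. For TGFB2 they were PDLIM5 (r = 0.984), TPM4 (0.982) and IQCN (0.980), and for INHA CILK1 (0.990), ZNF681 (0.989) and CORO2A (0.987). PDLIM5 averaged 66.5, 200.5, 193.6 and 142.6 CPM at 0, 6, 12 and 24 h, while CILK1 averaged 16.0, 6.38, 7.80 and 5.77. The 11 points share 4 time points and their scaling, so these values are a description.

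With library size alone in place of TMM, the median over all tested genes against 0 h moved on the log2 scale to -0.32, -0.50 and -0.97 at 6, 12 and 24 h, and the TMM values are relative to medians near 0. Under both scalings SMAD6 at 6 and 24 h and SMAD3 at 24 h were called lower. INHA was also called lower at each time, but it entered the test only through its normoxic counts, so those calls are not used as support. TGFB1 at each time, TGFB2 at 6 and 12 h and TGFBR2 at 6 h were called higher under both.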

How the data were processed

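RNA from RWPE1 cells was sequenced in 11 libraries. The authors trimmed the reads with Trimmomatic, aligned them to hg38 with STAR and assigned them to Ensembl genes with featureCounts. The deposited values are raw whole-number counts, neither filtered nor normalized. The strand setting and the handling of multiple matches are not given in the sources used here. Total counts were 27496009 to 49488345 per library. The 10 genes, the lists and the tests were chosen with earlier results of these data known.

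Symbols, positions and exonic lengths came from GENCODE release 44, in which 60357 of 60676 identifiers were found. filterByExpr (minimum count 10, minimum total 15) kept 19981 genes. TMM scaling and edgeR's quasi-likelihood fit took all libraries with time as the only factor, adjusted by Benjamini-Hochberg, with a biological coefficient of variation of 19.6%. Standard errors are the size of the log2 fold change divided by the root of F. RPKM is CPM per exonic kilobase. Ratios of summed counts have exact conditional 95% intervals, which cover counting error only. The study's own fit was limma-voom, which was an alternative here. Other alternatives were sample quality weights, DESeq2, other scalings, other filters, only the groups compared, a replicate block and each library left out, and those of single list genes were chosen later, with the data seen. Each test was also run on simulated counts with known changes.

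All 10 genes are named, and of each list up to 3 genes per subgroup with the largest average change among those called in 1 direction at all 3 times. Other list genes named (FN1, SPHK1, CDKN2B, ID1, SMAD2 and SMAD4) were chosen after their values were seen. A gene that this rule names is not reported here. Promoters (250 bases before to 50 after the start) are from RefSeq on GRCh38.p14, where all 10 genes matched, with 17 windows. The software was scipy 1.17.1, pandas 2.3.3, numpy 2.4.6 and matplotlib 3.10.9 in Python 3.11.15, and DESeq2 1.42.0, limma 3.58.1 and edgeR 4.0.16 in R 4.3.3.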

Additional observations from a re-analysis of the deposited data

Results flagged for a closer look

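The levels of 3 genes differed between hypoxic time points by a direct test in edgeR, with Benjamini-Hochberg adjustment over 19981 genes. Without normoxic libraries at these times, length of hypoxia and time in culture cannot be told apart. SMAD3 was lower at 24 h than at 6 h, with a log2 fold change of -1.56 (adjusted p = 0.000133), and than at 12 h, with -1.21 (adjusted p = 0.00192). TGFBR2 was lower at 24 h than at 6 h, with -1.31 (adjusted p = 0.000420), and than at 12 h, with -0.77 (adjusted p = 0.0139). SMAD6 was lower at 24 h than at 6 h, with -0.98 (adjusted p = 0.0117), and than at 12 h, with -1.63 (adjusted p = 0.00224). In fits of only the 2 groups compared, all 3 contrasts with 12 h and that of SMAD6 with 6 h lost their calls (adjusted p from 0.0658 to 0.0883). With sample quality weights in limma-voom, those of SMAD6 with 6 h (0.446) and 12 h (0.252) and of TGFBR2 with 12 h (0.186) did. In each of these the 2 libraries at 24 h lay below all 3 libraries of the earlier time. No group had enough libraries for a check of single outlying values.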

How the results depend on the processing

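Of 2076 alternative values for 105 log2 fold changes, 1938 kept their direction and side of the threshold, 66 lost the call, 44 gained it and 28 changed sign, and 2 of the last were called values (TGFBR2 at 12 h and TGIF2 at 24 h). Of 240 alternative list counts, 27 moved by over 1.5 times. The cause of these changes was not tested except where fewer genes or libraries entered.

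Library size alone turned the sign of INHBA at 6 h (-0.19) and 24 h (-0.96), TGFBR2 at 12 h (-0.0078), FST (-0.77), SMAD7 (-0.66) and TGIF2 (-0.16) at 24 h, SMAD7 from 6 to 12 h (-0.093), and TGFB1 from 12 to 24 h (-0.37) and 6 to 24 h (-0.27). INHBA at 24 h was also negative with limma-voom (-0.024), quality weights (-0.0054), no filter (-0.094) and at least 10 counts in every library (-0.13). The 10-count filter removes INHA and TGFB2 and called 1 of the 10 genes at 12 h and 3 at 24 h, against 6 and 5.

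Quality weights called 3 of these genes at 24 h, 3 from 6 to 12 h and 1 from 12 to 24 h, and called 35 and 12 of the pathway list at 12 and 24 h (22 and 26 in the edgeR fit), where they called 14908 and 6169 of all 19981 genes, and 14 targets at 6 h (8 in the edgeR fit). From 6 to 12 h DESeq2 called 3 genes, and library size alone, no filter and a fit of only those groups 1 each, against 0. Fits of only the groups compared called 13 targets at 6 h, where 12219 of 18683 tested genes were called. From 12 to 24 h they called 0 of these genes, where 0 of 17807 were called. Library size alone called 5 genes from 6 to 24 h, where it called 8642 of 19981 tested genes.

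A fit with 1 library at 24 h assumes that it varies like the other groups. With 1 library left out, log2 fold changes against 0 h ran from -0.17 to 0.044 for SMAD6 at 12 h, and at 24 h from -0.43 to 0.33 for INHBA, -0.21 to 0.49 for FST and -0.57 to 0.58 for SMAD7. From 6 to 12 h SMAD7 ran from -0.011 to 0.10. From 12 to 24 h TGFB1 ran from -0.29 to 0.48 and SMAD7 from -1.12 to 0.018. From 6 to 24 h INHA ran from -4.61 to 0.39, INHBA from -0.54 to 0.22, TGFB1 from -0.034 to 0.72 and SMAD7 from -1.07 to 0.088. The genes called numbered 3 to 6 at 12 h, 0 to 4 from 6 to 12 h, 2 to 7 from 12 to 24 h and 3 to 6 from 6 to 24 h, and targets called 6 to 14 at 6 h and 7 to 12 at 24 h.

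With the replicate number as a block, 6, 4 and 5 genes were called at 6, 12 and 24 h, and the calls of TGFBR2 (edgeR adjusted p = 0.0616) and SMAD7 (0.0621) at 12 h were lost, with no other call of the 10 genes changed. The labels do not say whether the numbers pair the libraries. Deviations from group means correlated from -0.156 to 0.207 in 15 same-numbered pairs, over 0.1 in 2, and from -0.271 to 0.283 in the 30 others. In groups of 2 or 3 libraries the deviations sum to 0, so these correlations cannot settle pairing. Depth limits INHA, INHBB, TGFB2 and GREM1, where a count of 0 allows up to 0.163 CPM.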
